A study of Mus musculus with 22 samples.

Results

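The CXC and CX3C chemokines described here are 10 ligand genes, *Cxcl1*, *Cxcl2*, *Cxcl5*, *Cxcl9*, *Cxcl10*, *Cxcl12*, *Cxcl14*, *Cxcl16*, *Cx3cl1* and *Pf4*. They were chosen by name, as members of the ligand family and with earlier results of these data known, and 6 other CXC ligands are listed apart. The source was an RNA-seq count table of cultured mouse embryonic fibroblasts (MEFs) with 55401 gene identifiers. All 10 had an identifier in that table. The study asked how the ribosomal S6 kinases S6K1 (encoded by *Rps6kb1*) and S6K2 (encoded by *Rps6kb2*), which act downstream of mTOR complex 1, affect the secretory programme of senescent cells. MEFs are primary cells grown from embryos after removal of head and viscera, and they stop dividing and become senescent when passaged serially in ambient oxygen.

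The 22 libraries formed 2 sets of MEFs from mice on a C57BL/6 background. Early libraries came from passage 3 and late ones from passage 8. The *S6K1* set held 4 early wild-type (WT), 4 late WT and 3 late *S6K1* knockout (KO) libraries, and the *S6K1/S6K2* set held 4 early WT, 4 late WT and 3 late *S6K1/S6K2* double knockout (DKO) libraries. All were untreated beyond passaging in serum-containing medium. The deletions were carried by the whole embryo, and no library of KO or DKO MEFs at early passage was used here. Littermate embryos of heterozygous crosses gave the WT and KO cells of the first set. DKO embryos came from crosses of *S6K1* heterozygous, *S6K2* null mice, and their WT controls came from WT mothers at an earlier stage of the breeding, so genotype and litter cannot be told apart in that set. The labels do not tie libraries to embryos, so the *P* values measure the spread between these libraries.

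Chemokines are small secreted proteins that bind G-protein-coupled receptors and direct the movement of leukocytes. CXCL1, CXCL2 and CXCL5 carry the Glu-Leu-Arg motif and attract neutrophils through CXCR2, whereas CXCL9 and CXCL10 are induced by interferon and attract T cells and natural killer cells through CXCR3. CXCL12 is made constitutively by mesenchymal cells and binds CXCR4 and the scavenging receptor ACKR3, CXCL16 and CX3CL1 are membrane proteins that metalloproteases release, and PF4 (CXCL4) is stored in platelet granules and is also transcribed by some tissue macrophages. Several ligands of the family belong to the inflammatory senescence-associated secretory phenotype, the set of factors that senescent fibroblasts release.

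Total counts per library were 10742454 to 17314832, so 3 counts in a library corresponded to 0.173 to 0.279 CPM (counts scaled to the size of the library). Fibroblast markers were high in every group (9 genes, 15096 to 35004 summed CPM per library), but lower at late passage. In the *S6K1* set they summed to 24961 to 33462 CPM in early WT and 15096 to 22787 CPM in late WT libraries. In the *S6K1/S6K2* set the sums were 24101 to 35004 and 16232 to 21347 CPM. *Rps6kb1* had 14.1 to 23.2 CPM in late KO libraries and 56.5 to 75.1 CPM in late WT libraries of the same set. DKO libraries had 19.9 to 28.3 CPM of *Rps6kb1* and 0.471 to 1.36 CPM of *Rps6kb2*, against 63.5 to 87.1 and 11.1 to 16.5 CPM in late WT libraries of that set. Y-linked genes were expressed in 12 of the 22 libraries, among them 3 of 3 late KO but 1 of 4 late WT libraries of the *S6K1* set. In the *S6K1/S6K2* set the imbalance was opposite, with 1 of 3 DKO but 3 of 4 late WT libraries. Embryo sex was therefore not balanced between genotypes in either set. The 19 macrophage markers (*Adgre1*, *Cd68*, *Csf1r* and others) summed to 487 to 2016 CPM in the early libraries and to 5472 to 12631 CPM in the late WT libraries. In bulk RNA, fewer cells of a type and less RNA per cell cannot be told apart.

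The 2 sets shared a late-passage rise of *Cxcl16* and a fall of *Cxcl10*, and they differed most in *Cxcl2*, which fell with passage in the *S6K1* set and rose in the *S6K1/S6K2* set. Late DKO MEFs had less *Cxcl2*, *Cxcl16* and *Pf4* and more *Cxcl14* than late WT MEFs. With 1 library left out, these DKO differences no longer passed in 10 (*Cxcl2*), 7 (*Cxcl16*), 5 (*Pf4*) and 1 (*Cxcl14*) of 11 fits. The fall of *Cxcl10* in the *S6K1/S6K2* set no longer passed in 6 of 11. With *S6K1* deleted alone, no member passed the test against late WT MEFs. A member is said to have passed where the adjusted *P* of edgeR's quasi-likelihood test was under 0.05 after Benjamini-Hochberg adjustment over all genes tested, and fold changes are given on the log2 scale with their standard errors (SE).

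Across passage in WT cells of the *S6K1* set, 5 of 10 members passed, 2 higher and 3 lower, where 12.9 percent of the 14132 genes tested passed, 6.96 percent higher and 5.97 percent lower. For the *S6K1/S6K2* set the same comparison could be made for 9 members, since *Cxcl9* was under the filter on low counts, and 4 passed, 2 higher and 2 lower, against 13.2 percent of 14365 genes, 8.28 percent higher and 4.89 percent lower. Late DKO against late WT MEFs gave 4 of 9 members, 1 higher and 3 lower, against 4.78 percent of all genes, 0.821 percent higher and 3.95 percent lower. Late *S6K1* KO against late WT MEFs gave 0 of 10 members by edgeR and 0 by DESeq2, with 3 members (*Cxcl12*, *Cxcl16* and *Pf4*) under an unadjusted *P* of 0.05, as 1499 of the 14132 genes were, and 0.0425 percent of all genes passed, 0.00708 percent higher and 0.0354 percent lower. The median log2 fold change of the members was -0.44, -0.07, -0.12 and 0.51 in the *S6K1* passage, KO, *S6K1/S6K2* passage and DKO comparisons, and that of all genes was -0.04, -0.01, 0.01 and -0.01. Counted by libraries that did not overlap, 1 of the 10 members was higher and 4 were lower with passage in the *S6K1* set, where 18.2 percent of genes did not overlap, 9.07 percent higher and 9.1 percent lower. The KO comparison had 1 member higher and 1 lower without overlap, against 13.1 percent of genes (6.9 and 6.21 percent). With passage in the *S6K1/S6K2* set 2 of 9 members were higher and 1 was lower, against 20.5 percent (10 and 10.5 percent). For DKO MEFs the counts were 2 higher and 4 lower of 9, against 16.2 percent (5.71 and 10.5 percent). Each KO or DKO comparison shares its late WT libraries with the passage comparison of the same set.

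**Figure D1:**
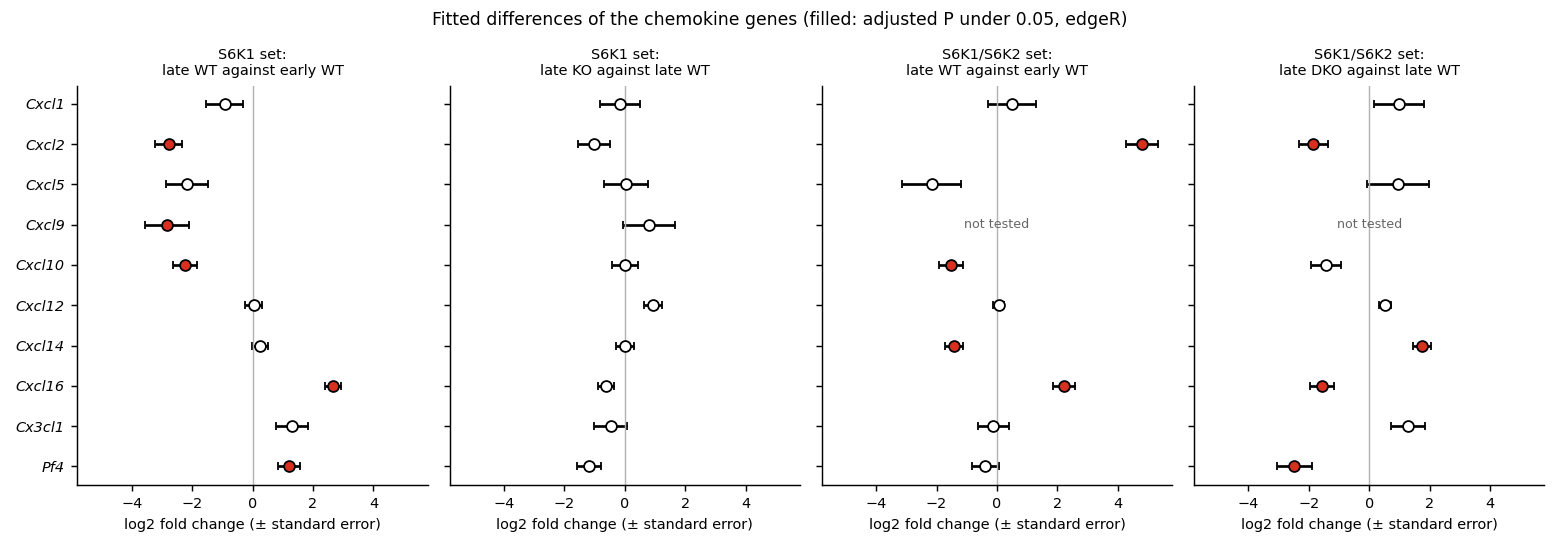
Log2 fold changes of the 10 members in 4 comparisons (x axis, with bars of 1 standard error, 1 row a gene), with filled points for an adjusted P under 0.05 in edgeR. Cxcl2 is at -2.78 in the passage comparison of the S6K1 set and at 4.81 in that of the S6K1/S6K2 set, and Cxcl16 is at 2.67 and 2.23.

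Per kilobase of annotated exon, the level of *Cxcl12* was the highest of the members in early WT MEFs of the *S6K1* set, at 79.9 ± 8.89 CPM per kb (SD, n = 4). *Cxcl5* followed with 67.5 ± 27.8 and *Cxcl14* with 65.0 ± 11.8 CPM per kb, and these 3 were within each other's spread. *Pf4* (9.56 ± 4.91), *Cxcl10* (6.45 ± 3.11), *Cxcl16* (4.89 ± 0.879), *Cxcl1* (3.79 ± 1.65) and *Cxcl2* (3.31 ± 0.325 CPM per kb) formed a middle group whose neighbours overlapped. *Cx3cl1* (1.87 ± 0.801) had a lower mean but overlapped with *Cxcl1*, and *Cxcl9* (0.422 ± 0.191) was the lowest. In late WT MEFs of that set *Cxcl12* (82.5 ± 35.3) and *Cxcl14* (77.8 ± 30.1 CPM per kb) stayed at the top. *Cxcl16* came next at 31.3 ± 11.7, then *Pf4* at 21.98 ± 6.85 CPM per kb, ahead of *Cxcl5* at 15.3 ± 13.01 with overlapping spreads. *Cxcl2* at 0.479 ± 0.346 and *Cxcl9* at 0.0560 ± 0.0595 CPM per kb were the lowest.

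**Figure D2:**
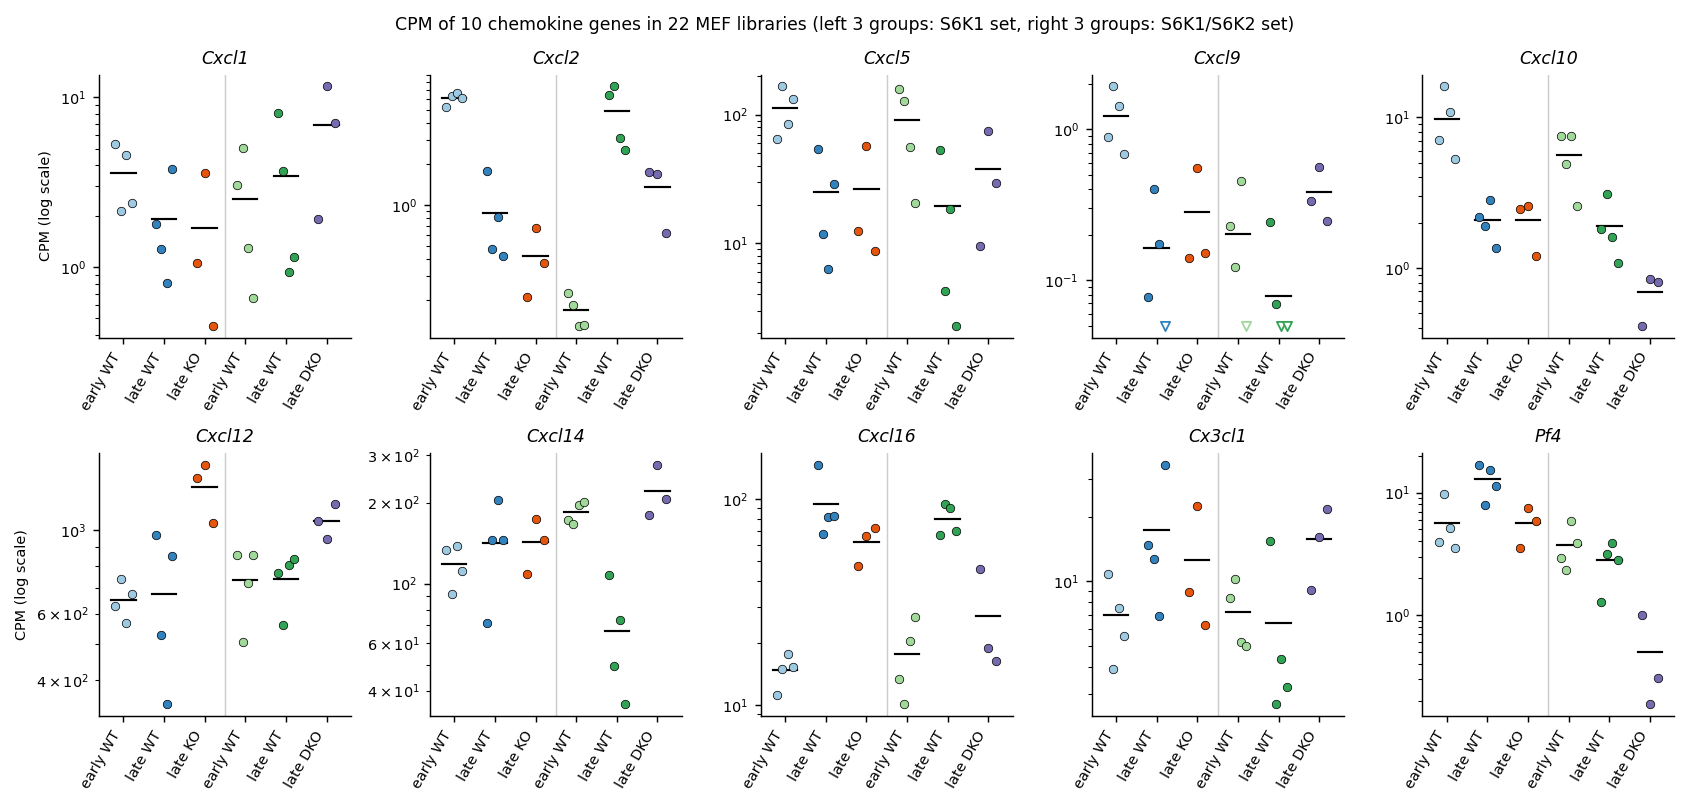
CPM of each member (y axis, log scale) in each library (points) of the 6 groups (x axis), with the group mean as a bar and open triangles for libraries with 0 counts, drawn at a fixed height. The 4 early WT libraries of the S6K1/S6K2 set sit at 0.13 to 0.227 CPM of Cxcl2, below the 5.25 to 6.66 CPM of the early WT libraries of the S6K1 set.

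Of the 10 members, 6 lie on mouse chromosome 5 in the GRCm38 assembly. *Cxcl5* (chr5:90759298-90761625), *Pf4* (chr5:90772435-90773383), *Cxcl1* (chr5:90891245-90893121) and *Cxcl2* (chr5:90903899-90905938) lie in one stretch, and *Cxcl9* (chr5:92321331-92328079) and *Cxcl10* (chr5:92346638-92348889) lie near each other further along. Genes between them that are not members were not mapped. The other members are on chromosomes 6 (*Cxcl12*, chr6:117168535-117181368), 13 (*Cxcl14*, chr13:56288643-56296811), 11 (*Cxcl16*, chr11:70454389-70459984) and 8 (*Cx3cl1*, chr8:94772180-94782427). Changes of members near each other were alike in some cases, such as the falls of *Cxcl9* and *Cxcl10* with passage in the *S6K1* set, and not in others. In the *S6K1/S6K2* set *Cxcl2* rose with passage by 4.81 on the log2 scale, while the difference of the nearby *Cxcl1* was 0.50 (SE 0.79).

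Upstream sequence was read from the RefSeq promoter table of GRCm38.p6, which held 8 of the 10 members, without *Cxcl5* and *Cxcl16*. Stretches before the transcription start are shown for the members with a match other than a TATA box (TATAAA), with matches to searched motifs in capitals. *Cxcl12* held no match and *Cxcl9* and *Cx3cl1* held only TATAAA, and their stretches are not shown. *Cxcl1* and *Cxcl2* hold the same NF-kappa-B element, *Cxcl10* holds a pair of NF-kappa-B matches with an interferon-stimulated response element and an AP-1 site (TGANTCA), *Cxcl14* holds a gamma-activated site (TTCNNNGAA) and an interferon-stimulated response element, and *Pf4* holds a PU.1 match (GAGGAAGT, here on the reverse strand). For *Cxcl14* the table takes the start of a transcript at position 56296551, which is 260 bases inside the outer end of the gene given above, so the stretch shown lies before that start but within the annotated gene.
Cxcl1, chr5:90891125-90891204, plus strand: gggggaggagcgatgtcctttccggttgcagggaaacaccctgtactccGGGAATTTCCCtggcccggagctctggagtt
Cxcl2, chr5:90903753-90903832, plus strand: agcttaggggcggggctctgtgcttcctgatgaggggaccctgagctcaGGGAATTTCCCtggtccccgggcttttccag
Cxcl10, chr5:92348950-92349109, minus strand: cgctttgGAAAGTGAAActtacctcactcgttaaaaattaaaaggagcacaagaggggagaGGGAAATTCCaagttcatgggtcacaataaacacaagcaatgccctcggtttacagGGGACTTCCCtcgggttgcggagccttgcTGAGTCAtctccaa
Cxcl14, chr13:56296702-56296751, minus strand: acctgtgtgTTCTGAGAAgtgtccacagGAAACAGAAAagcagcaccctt
Pf4, chr5:90772375-90772434, plus strand: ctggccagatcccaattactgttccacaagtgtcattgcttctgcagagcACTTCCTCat

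The shared element of *Cxcl1* and *Cxcl2*, GGGAATTTCCC, starts 71 and 97 bases before the annotated start and occurs in 14 of 32851 mouse promoters (0.0426 percent) within 250 bases. The longest run common to both 250-base windows is 14 bases and contains it. Matches to the NF-kappa-B consensus on either strand were found in 3 of the 8 members and in 3.9 percent of all promoters, and in *Cxcl10* they start 159 and 103 bases before the start. Interferon-stimulated response elements were found in 2 members (2.98 percent of promoters), and AP-1 (6.75 percent), gamma-activated (7.02 percent) and PU.1 sites (2.44 percent) in 1 member each. TATAAA matches were found in *Cxcl9* and *Cx3cl1* (12.4 percent of promoters), and neither a CArG box (1.47 percent) nor a cyclic AMP response element (TGACGTCA, 1.55 percent) was found in any of the 8 windows. The element of *Cxcl1* and *Cxcl2* was matched on both strands, so its forward and reverse matches overlap. A match is a description of the letters and was not tested for binding.

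*Cxcl2*, a neutrophil attractant known as MIP-2, had 5.25, 6.26, 6.66 and 6.09 CPM in the 4 early WT libraries of the *S6K1* set. Late WT libraries of that set had 1.79, 0.479, 0.812 and 0.423 CPM, and late KO libraries 0.211, 0.680 and 0.378 CPM. All late libraries lay below all early ones, with no overlap between the groups. The fold change with passage was -2.78 (SE 0.44, edgeR, adjusted *P* = 0.00154), 6.88-fold lower.

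The other set went the opposite way. Early WT libraries of the *S6K1/S6K2* set had 0.227, 0.184, 0.130 and 0.132 CPM of *Cxcl2*, from 2 to 4 counts each, and the late WT libraries 6.37, 7.40, 3.12 and 2.55 CPM. Every late library was above every early one. The log2 fold change was 4.81 (SE 0.53, edgeR, adjusted *P* = 0.000312). Summed over libraries, 295 against 11 counts gave a ratio of 28.6 with an exact 95 percent interval of 15.7 to 57.9, which covers counting error only. The difference between the sets in the passage effect was 7.56 (SE 0.70, edgeR, adjusted *P* = 1.25e-06), and *Cxcl2* was the 1 member of 10 that passed this test, where 0.712 percent of 14886 genes did, 0.457 percent in that direction.

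Both ends of the passage comparison differed between the sets. In any comparison between the sets, set, mothers and stage of breeding cannot be told apart. Early WT MEFs of the *S6K1/S6K2* set had less *Cxcl2* than those of the *S6K1* set by -5.10 (SE 0.54, edgeR, adjusted *P* = 1.4e-05), the 1 member passing where 0.84 percent of genes did, 0.437 percent lower. In late WT MEFs the *S6K1/S6K2* set was higher by 2.46 (SE 0.45, edgeR, adjusted *P* = 0.00859). With *Pf4*, 2 of 10 members passed there, 1 higher and 1 lower, against 1.19 percent of genes, 0.806 percent higher and 0.383 percent lower. These set differences of *Cxcl2* passed in all fits that left out 1 library.

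DKO libraries had 1.74, 1.70 and 0.618 CPM of *Cxcl2*, all below the late WT libraries of their set. The fold change was -1.86 (SE 0.47, edgeR, adjusted *P* = 0.0456), but leaving out any library except late WT replicate 4 ended this call (adjusted *P* = 0.0501 to 0.153 in edgeR). Late KO and late WT libraries of the *S6K1* set overlapped, at a difference of -1.02 (SE 0.54, edgeR, adjusted *P* = 0.543) from 3 to 11 counts per KO library. Of the 50-base words of the *Cxcl2* transcript, 3.33 percent also occur in *Cxcl3*, a close paralog that had 0 to 60 counts per library. How reads shared by both were counted is not given in the sources used here.

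Immediate-early genes, which are transcribed within minutes of stimulation, moved in the same opposite directions as *Cxcl2*. Of 15 on the list, 11 fell and 0 rose with passage in the *S6K1* set, and 12 rose and 0 fell in the *S6K1/S6K2* set. The passage effect of 13 differed between the sets. *Fos* fell by 4.96 on the log2 scale (SE 0.24, edgeR, adjusted *P* = 4.43e-07) in the first and rose by 5.54 (SE 0.28, edgeR, adjusted *P* = 1.69e-06) in the second. The summed level of the list was 1543 to 1732 CPM in early WT and 378 to 480 CPM in late WT libraries of the *S6K1* set, and 409 to 503 and 1153 to 1592 CPM in those of the *S6K1/S6K2* set. DKO libraries stood apart from this order, with 1447 to 1855 summed CPM of immediate-early genes and only 0.618 to 1.74 CPM of *Cxcl2*. Single genes of the list were mixed in DKO against late WT MEFs, with 9 positive and 6 negative estimates. In edgeR 1 passed higher and 1 lower, and DESeq2 called 3 higher and 1 lower. The part of the immediate-early response in the *Cxcl2* levels was not tested.

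**Figure D3:**
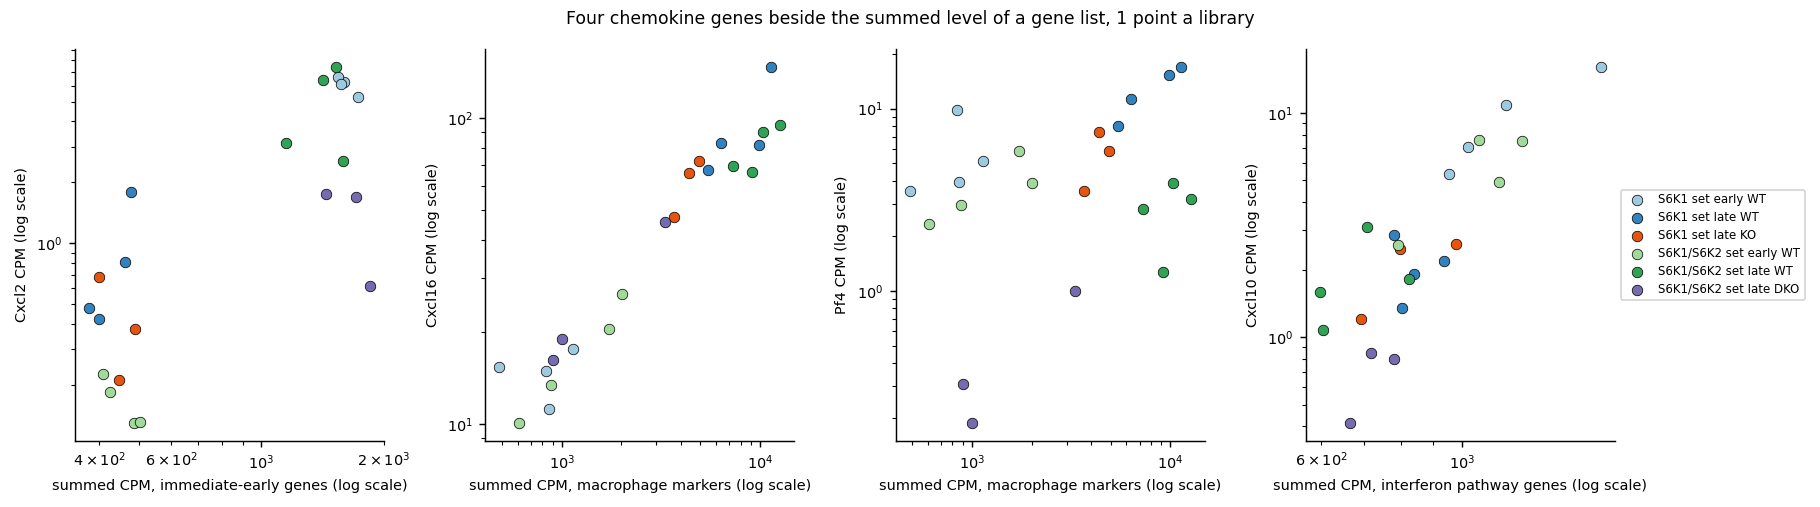
CPM of 4 members (y axes, log scale) against the summed CPM of a gene list (x axes, log scale), 1 point a library, coloured by group. Cxcl2 is at 2.55 CPM or more where the immediate-early sum is at least 1153 CPM, except in the 3 DKO libraries, and Cxcl16 is highest (146.5 CPM) in a library with 11266 summed CPM of macrophage markers.

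*Cxcl1* (KC), which attracts neutrophils like its paralog *Cxcl2*, did not pass in any comparison. Its libraries ranged over 2.14 to 5.30 CPM in early WT, 0.812 to 3.81 in late WT and 0.453 to 3.59 CPM in late KO MEFs of the *S6K1* set. Ranges in the *S6K1/S6K2* set were 0.660 to 5.03, 0.942 to 8.07 and 1.91 to 11.6 CPM in early WT, late WT and DKO MEFs. Every pair of groups compared overlapped. The 95 percent interval of its passage effect in the *S6K1/S6K2* set ran from -1.04 to 2.04 on the log2 scale, which leaves room for a change of either direction.

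*Cxcl5* (LIX), the most abundant of the 3 neutrophil attractants, had 64.4, 166, 84.0 and 133 CPM in early WT and 54.1, 11.7, 6.26 and 28.9 CPM in late WT libraries of the *S6K1* set. The groups did not overlap, but the difference of -2.16 (SE 0.70, edgeR, adjusted *P* = 0.0614) missed the threshold. It passed in edgeR without late WT replicate 1 or late KO replicate 2 (adjusted *P* = 0.0304 to 0.0360). The difference in the *S6K1/S6K2* set was -2.17 (SE 0.98, edgeR, adjusted *P* = 0.162), from 20.4 to 158 CPM in early and 2.29 to 53.2 CPM in late WT libraries, which overlapped. Late KO (8.76 to 57.4 CPM) and DKO libraries (9.47 to 74.2 CPM) spread as widely as late WT ones, and their differences from late WT were 0.05 (SE 0.73) and 0.96 (SE 1.02).

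*Cxcl10* (IP-10), a CXCR3 ligand induced by interferon, had 7.07, 16.0, 10.8 and 5.32 CPM in early WT and 2.18, 1.91, 2.84 and 1.35 CPM in late WT libraries of the *S6K1* set. The late libraries were all below the early ones, and the fold change of -2.24 (SE 0.38, edgeR, adjusted *P* = 0.00259) passed in all 11 fits that left out 1 library. Early WT libraries of the *S6K1/S6K2* set had 7.48, 4.91, 7.55 and 2.58 CPM and late WT libraries 1.82, 3.11, 1.59 and 1.08 CPM. One early library lay within the late range, and the fold change was -1.52 (SE 0.40, edgeR, adjusted *P* = 0.0287). The call ended without early WT replicate 1, 2 or 3 or late WT replicate 1, 3 or 4 (adjusted *P* = 0.0549 to 0.0944).

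Late KO libraries had 2.47, 2.60 and 1.21 CPM of *Cxcl10*, of which 2 lay within the late WT range and 1 below it, at a difference of 0.01 (SE 0.42, edgeR, adjusted *P* = 0.997). DKO libraries had 0.415, 0.848 and 0.803 CPM, all below the late WT libraries of their set. That difference of -1.45 (SE 0.50, edgeR, adjusted *P* = 0.136) did not pass, and the difference between the sets in the genotype effect was -1.44 (SE 0.67, edgeR, adjusted *P* = 0.439). *Cxcl10* overlaps *Art3*, on the opposite strand, over 8.75 percent of its exonic bases, and the strand setting of the counting is not given in the sources used here.

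*Cxcl9* (MIG), the other CXCR3 ligand, had the lowest mean level per kb of exon in each of the 6 groups. Its mean ± SD overlapped with that of *Cxcl1*, *Cxcl2* and *Cxcl5* in late KO MEFs and of *Pf4* in DKO MEFs. In the *S6K1/S6K2* set it also overlapped with that of *Cxcl2* in early WT and of *Cxcl5* in late WT MEFs. Early WT libraries of the *S6K1* set had 16, 26, 24 and 8 counts (0.883, 1.92, 1.41 and 0.686 CPM), and late WT libraries had 1, 5, 3 and 0 counts. The groups did not overlap, and the fold change of -2.84 (SE 0.73, edgeR, adjusted *P* = 0.0236) rested on these counts. The ratio of summed counts, 74 to 9, was 7.42 with an exact 95 percent interval of 3.71 to 16.9, which covers counting error only. Leaving out late WT replicate 1 or 3 ended the call (adjusted *P* = 0.0576 to 0.0650), and without early WT replicate 1, 2 or 3, or with only these 2 groups, *Cxcl9* fell under the filter on low counts. Late KO libraries had 2, 9 and 2 counts, at a difference of 0.79 (SE 0.86, edgeR, adjusted *P* = 0.786) from late WT. Libraries of the *S6K1/S6K2* set had 0 to 7 counts in early WT, 0 to 4 in late WT and 4 to 6 in DKO MEFs, too few to be tested in that set.

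Of 20 genes of the interferon pathway, 5 fell and 1 rose with passage in the *S6K1* set, and 12 fell and 1 rose in the *S6K1/S6K2* set. *Ifit1* fell by 2.19 (SE 0.51, edgeR, adjusted *P* = 0.0158) and by 2.29 (SE 0.48, edgeR, adjusted *P* = 0.0119) on the log2 scale, and *Isg15* by 1.79 (SE 0.46, edgeR, adjusted *P* = 0.0234) and by 2.59 (SE 0.39, edgeR, adjusted *P* = 0.00248). *Ifngr2*, which encodes a chain of the interferon-gamma receptor, rose in both. In late KO or DKO against late WT MEFs 0 of 20 passed in edgeR and in DESeq2, with 0 and 3 genes under an unadjusted *P* of 0.05, and its summed level was 597 to 824 CPM in late WT and 665 to 781 CPM in DKO libraries. The part of this pathway in the levels of *Cxcl9* and *Cxcl10* was not tested.

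Among 16 NF-kappa-B subunits, regulators and targets, few genes moved with passage. In the *S6K1* set *Nfkbie* rose by 1.03 (SE 0.28, edgeR, adjusted *P* = 0.0293) and *Nfkbiz* fell by 1.15 (SE 0.22, edgeR, adjusted *P* = 0.00504). With passage in the *S6K1/S6K2* set the feedback inhibitors *Nfkbia* (1.28, SE 0.16, edgeR, adjusted *P* = 0.000816) and *Tnfaip3* (2.14, SE 0.31, edgeR, adjusted *P* = 0.00141) rose and *Bcl3* fell by 1.07 (SE 0.29, edgeR, adjusted *P* = 0.0329). *Tnfaip3* was lower in DKO MEFs by -1.26 (SE 0.33, edgeR, adjusted *P* = 0.0491). The summed level of the list stayed between 424 and 553 CPM in all 22 libraries.

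*Cxcl12* (SDF-1), the ligand that retains CXCR4-bearing cells, had by far the most counts of the members. Early WT libraries of the *S6K1* set had 629, 740, 568 and 677 CPM, late WT libraries 972, 526, 346 and 854 CPM, and late KO libraries 1373, 1487 and 1042 CPM. The 3 KO libraries were above all late WT libraries. The difference of 0.94 (SE 0.30, edgeR, adjusted *P* = 0.313, unadjusted *P* = 0.00897) did not pass over all genes. DKO libraries (1054, 947 and 1170 CPM) likewise lay above late WT libraries of their set (767, 560, 805 and 837 CPM), with a difference of 0.51 (SE 0.20, edgeR, adjusted *P* = 0.188).

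Passage left *Cxcl12* within the spread of the libraries in both sets. The differences were 0.04 (SE 0.28) and 0.06 (SE 0.18), with 95 percent intervals of -0.52 to 0.59 and -0.30 to 0.42 on the log2 scale.

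*Cxcl14* (BRAK), a constitutive CXC ligand of epithelial and stromal cells, had 133, 91.6, 138 and 111 CPM in early WT and 71.2, 145, 205 and 145 CPM in late WT libraries of the *S6K1* set, which overlapped (0.25, SE 0.27, edgeR, adjusted *P* = 0.587). In the *S6K1/S6K2* set early WT libraries had 173, 167, 195 and 201 CPM and late WT libraries 108, 49.4, 73.0 and 35.7 CPM. All late libraries were below all early ones. The fold change was -1.43 (SE 0.28, edgeR, adjusted *P* = 0.00855) and passed in all 11 fits that left out 1 library.

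DKO libraries had 181, 277 and 206 CPM of *Cxcl14*, all above the late WT libraries and in part above the early WT libraries of their set. The difference from late WT was 1.74 (SE 0.30, edgeR, adjusted *P* = 0.0103), 3.34-fold higher, and it passed in 10 of 11 fits that left out 1 library, the exception being DKO replicate 2 (adjusted *P* = 0.0636). Late KO libraries (109, 174 and 145 CPM) were within the late WT range of their set, at a difference of 0.01 (SE 0.29). The genotype effects differed by 1.74 (SE 0.44, edgeR, adjusted *P* = 0.246, unadjusted *P* = 0.00079) and the passage effects by -1.71 (SE 0.41, edgeR, adjusted *P* = 0.0592), neither of which passed. No member passed the test of the genotype effects in edgeR, where 0.00672 percent of genes did and 3 members (*Cxcl10*, *Cxcl14* and *Cx3cl1*) had an unadjusted *P* under 0.05, as 1626 of 14886 genes had. By DESeq2, *Cxcl14* passed it (adjusted *P* = 0.0348).

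*Cxcl16*, a membrane-bound ligand and scavenger receptor of macrophages and dendritic cells, rose with passage in both sets. In the *S6K1* set it had 11.2, 15.0, 17.6 and 15.3 CPM in early WT and 146.5, 67.4, 81.8 and 82.9 CPM in late WT libraries. In the *S6K1/S6K2* set it had 13.4, 10.1, 20.5 and 26.7 CPM in early WT and 66.6, 94.97, 90.2 and 69.6 CPM in late WT libraries. Neither set had any overlap. Fold changes were 2.67 (SE 0.26, edgeR, adjusted *P* = 5.93e-05) and 2.23 (SE 0.37, edgeR, adjusted *P* = 0.00346), 6.36-fold and 4.69-fold, and both passed in all 11 fits of their set that left out 1 library.

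DKO libraries had 45.9, 18.9 and 16.3 CPM of *Cxcl16*, below every late WT library of the set. The fold change was -1.57 (SE 0.40, edgeR, adjusted *P* = 0.0476). The call ended without early WT replicate 1 or 3, late WT replicate 2, 3 or 4 or DKO replicate 2 or 3 (adjusted *P* = 0.0629 to 0.205), and with RLE scaling (adjusted *P* = 0.0530) or no filter on low counts (adjusted *P* = 0.172). Late KO libraries (47.5, 66.0 and 72.5 CPM) overlapped with late WT, at -0.61 (SE 0.27, edgeR, adjusted *P* = 0.446). *Cxcl16* shares 18.3 percent of its exonic bases with *Zmynd15* on the opposite strand.

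Macrophage markers changed in the same direction as *Cxcl16* in the passage and DKO comparisons. With passage 19 of 19 rose in the *S6K1* set (median 2.96) and 18 of 19 in the *S6K1/S6K2* set (median 2.51), and in DKO against late WT MEFs 17 of 19 fell (median -2.40). In late KO against late WT MEFs 0 of 19 passed in edgeR, 14 had an unadjusted *P* under 0.05 and 5 passed in DESeq2, all lower, and all 19 estimates were negative (median -0.87). Their summed level was 3323, 1003 and 906 CPM in the DKO libraries, in the same order as *Cxcl16*, against 7310 to 12631 CPM in late WT libraries. *Adgre1*, the F4/80 antigen, had 108 to 238 CPM in late WT and 79.6 to 96.3 CPM in late KO libraries. The part of macrophage RNA in the levels of *Cxcl16* was not tested.

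*Cx3cl1* (fractalkine), the membrane-bound ligand of CX3CR1, did not pass in any comparison in edgeR. Its late WT libraries of the *S6K1* set had 14.7, 12.7, 6.90 and 34.8 CPM, against 3.91 to 10.8 CPM in early WT, a difference of 1.30 (SE 0.51, edgeR, adjusted *P* = 0.121) between groups that overlapped. It passed by DESeq2 (adjusted *P* = 0.0440). Late KO libraries had 8.88, 22.4 and 6.27 CPM, and overlapped with late WT (-0.46, SE 0.55, edgeR, adjusted *P* = 0.807). Late WT libraries of the *S6K1/S6K2* set had 15.4, 2.698, 4.35 and 3.25 CPM, and DKO libraries 9.14, 16.1 and 21.8 CPM. Passage gave -0.12 (SE 0.52, edgeR, adjusted *P* = 0.902) there, from 5.02 to 10.2 CPM in early WT. Replicate 1 of late WT was the only late WT library within the DKO range. The difference was 1.28 (SE 0.56, edgeR, adjusted *P* = 0.245) with that library and 2.20 (edgeR, adjusted *P* = 0.0122) without it.

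*Pf4* had 3.98, 9.80, 5.12 and 3.52 CPM in early WT and 16.9, 7.98, 15.3 and 11.3 CPM in late WT libraries of the *S6K1* set. The groups overlapped by 1 library on each side, and the difference was 1.19 (SE 0.36, edgeR, adjusted *P* = 0.0492). Leaving out early WT replicate 1, 3 or 4, late WT replicate 1, 3 or 4 or late KO replicate 2 or 3 ended that call (adjusted *P* = 0.0515 to 0.118). Early WT libraries of the *S6K1/S6K2* set (2.33 to 5.86 CPM) and late WT libraries (1.27 to 3.91 CPM) overlapped, at -0.38 (SE 0.45, edgeR, adjusted *P* = 0.593).

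Both knockout comparisons put *Pf4* lower without overlap. Late KO libraries had 3.52, 7.48 and 5.82 CPM, at a difference of -1.20 (SE 0.40, edgeR, adjusted *P* = 0.316). DKO libraries had 0.997, 0.189 and 0.309 CPM from 12, 2 and 5 counts, against 1.27, 3.18, 3.91 and 2.80 CPM in late WT, at -2.48 (SE 0.59, edgeR, adjusted *P* = 0.0334). The summed counts were 5.58-fold lower, with an exact 95 percent interval of 3.46 to 9.50, which covers counting error only and not the spread between libraries. The call ended without late WT replicate 2, 3 or 4 or DKO replicate 2 or 3 (adjusted *P* = 0.0607 to 0.150). Late WT MEFs of the *S6K1/S6K2* set had less *Pf4* than those of the *S6K1* set by -2.19 (SE 0.43, edgeR, adjusted *P* = 0.0129), which passed in all 22 fits that left out 1 library.

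Platelet and megakaryocyte markers other than *Pf4* summed to 2.32 to 10.98 CPM over 10 genes, beside 0.189 to 16.9 CPM of *Pf4*. *Gp9* and *Gfi1b* had 0 counts in all libraries. Macrophage markers rose with passage in both sets, but *Pf4* passed in the *S6K1* set alone, and the test of that difference gave -1.61 (SE 0.59, edgeR, adjusted *P* = 0.337). Neutrophil markers summed to 0.185 to 4.67 CPM per library, and *S100a9* and *Ngp* had 0 counts in all 22 libraries. The 1 neutrophil marker with enough counts to be tested, *Csf3r*, rose with passage in both sets (4.65, SE 0.78, edgeR, adjusted *P* = 0.00222, and 2.41, SE 0.53, edgeR, adjusted *P* = 0.0121) and was lower in DKO MEFs (-2.32, SE 0.61, edgeR, adjusted *P* = 0.0495). The endothelial list summed to 5.38 to 16.7 CPM.

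Of 11 receptors of these ligands, 5 had enough counts to be tested, and *Cxcr4* and *Cx3cr1* passed. *Cxcr4*, the receptor of CXCL12, had 0.257 to 0.958 CPM in early WT and 14.8 to 24.9 CPM in late WT libraries of the *S6K1* set, a rise of 4.61 (SE 0.33, edgeR, adjusted *P* = 1.2e-05), and rose by 3.95 (SE 0.43, edgeR, adjusted *P* = 0.000385) in the *S6K1/S6K2* set. *Cx3cr1*, the receptor of CX3CL1, rose by 2.18 (SE 0.44, edgeR, adjusted *P* = 0.00653) and by 2.04 (SE 0.46, edgeR, adjusted *P* = 0.0164).

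In DKO against late WT MEFs *Cxcr4* was lower by -2.15 (SE 0.43, edgeR, adjusted *P* = 0.0174) and *Cx3cr1* by -2.43 (SE 0.53, edgeR, adjusted *P* = 0.0271), so that *Cxcl12* and its receptor had estimates of opposite sign. In late KO against late WT MEFs 0 of the 5 passed in edgeR, 2 had an unadjusted *P* under 0.05, and *Cxcr4* was called lower by DESeq2. *Cxcr6*, the receptor of CXCL16, *Ackr3* and *Ackr4* did not pass in any of the 4 comparisons in edgeR. *Cxcr1* and *Cxcr2*, the receptors of the neutrophil attractants, had 0 counts in all libraries, and *Cxcr3* had 0 to 11 counts per library.

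**Figure D4:**
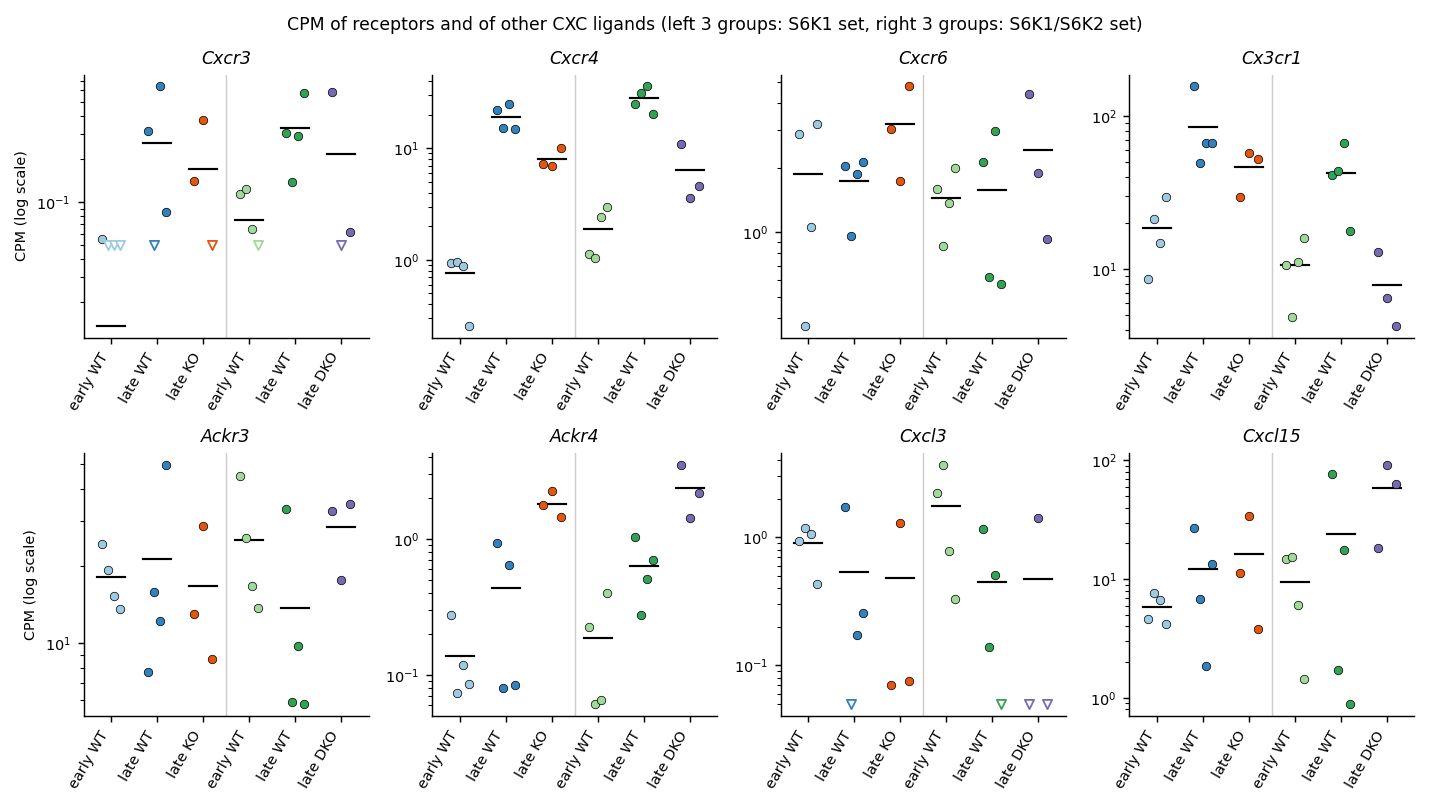
CPM of 6 receptors and of the ligands Cxcl3 and Cxcl15 (y axes, log scale) in each library (points) of the 6 groups (x axis), with the group mean as a bar and open triangles for 0 counts, drawn at a fixed height. Cxcr4 is at 0.257 to 0.958 CPM in early WT and 14.8 to 24.9 CPM in late WT libraries of the S6K1 set.

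Of 7 proteases that cut chemokines, *Ctss*, a lysosomal cysteine protease of macrophages, rose with passage in both sets (3.14, SE 0.28, edgeR, adjusted *P* = 3.8e-05, and 3.43, SE 0.51, edgeR, adjusted *P* = 0.00222) and was lower in DKO MEFs (-2.35, SE 0.54, edgeR, adjusted *P* = 0.0339). *Dpp4*, which trims the amino terminus of CXCL12 and CXCL10, fell by 4.26 (SE 0.78, edgeR, adjusted *P* = 0.00486) with passage in the *S6K1/S6K2* set, from 12 to 30 counts per early library to 0 to 2 counts per late library. *Adam10* and *Adam17*, the enzymes that release CXCL16 and CX3CL1, did not pass in any comparison. Of the 6 other CXC ligands on the list 3 were tested (*Cxcl3*, *Cxcl15* and *Ppbp*), and 0 passed in any of the 4 comparisons in edgeR or DESeq2, with 0 under an unadjusted *P* of 0.05, while *Cxcl15* ranged over 14 to 1260 counts within late WT libraries of the *S6K1/S6K2* set.

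The genes most alike to a member were found by Pearson's *r* of log2 CPM, centred on the mean of each set, over 22 libraries and 12997 genes, as a description without a test, since all points share the same 6 groups. *Cxcl2* was most like *Fos* (*r* = 0.89), *Fosb* (0.88) and *Junb* (0.87), all immediate-early transcription factors. *Cxcl16* was most like the myeloid receptors *Trem2*, *Clec12a* and *Clec4d* (0.99 each), and the genes most like *Pf4* included *S1pr1* and *Slfn2* (0.85 each). *Cxcl10* was most like *Zc3hav1*, *Mnda* and *Ermp1* (0.91 each), of which the first encodes an antiviral zinc-finger protein.

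The remaining members had other neighbours. *Cxcl5* was most like *Tcfap2b*, *Apln* and *Efna1* (0.93 each), *Cx3cl1* most like *Amigo1* (0.89), *Fam13c* (0.86) and *Cacna2d3* (0.84), and *Cxcl1* most like *Ypel4*, *Mtap2* (0.80 each) and *Pdp1* (0.79). *Cxcl12* was most like *Slc1a6* (0.84), *Dusp27* and *8430436N08Rik* (0.81 each), and *Cxcl14* most like *Ece1*, *Cmya5* (0.76 each) and *Dcaf5* (0.74). *Cxcl9* was under a mean of 1 CPM and was left out of this search.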

How the data were processed

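RNA-seq of 22 MEF libraries was analysed as raw counts per gene, deposited by the authors without normalization. The study's text names stranded mRNA libraries, single-end reads, CASAVA, TopHat with mm9 and HTSeq, whereas the submitters' processing notes name CASAVA, STAR 2.7.1a, mm10 and DESeq2 1.28.1. Of 55401 identifiers, 32589 (97.0% of counts) had a symbol in GENCODE vM1 of NCBIM37, and 22812 did not match it. Positions and upstream sequences come from RefSeq GRCm38.p6, the build of the processing notes, and exonic lengths, overlaps and shared words from vM1. The annotation release and strand setting of the counting are not given in the sources used here.

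In R 4.3.3, edgeR 4.0.16 filtered genes (filterByExpr), scaled them by TMM and tested the 3 groups of a set in 1 fit, and all 22 libraries for differences between sets. CPM used TMM over 22 libraries. Total counts were 10742454 to 17314832 (median 14651364). Intervals from counts cover counting error only. The 30 pairs of libraries of a group differed by more than sampling noise (chi-square per degree of freedom 20.6 to 266). The scripts were tested on simulated data.

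Alternatives were DESeq2 1.42.0, RLE and total-count scaling, no filter, a Y-linked covariate, fits of 2 or all 6 groups, and leaving out each library. Members, gene lists and tests were chosen with earlier results of these data known. All 10 members are named in each of the 4 comparisons within a set. For the comparisons between sets, the members that passed are named and the others only in part. For the other lists described, counts or summed levels are given and at most 4 passing genes with the smallest *P* are named. Also named are *Ifit1*, *Adgre1*, *Cxcl15*, *Ackr4* and list genes at 0 or not passing, which were chosen after their values were seen. Lists of senescence and cycling genes and of epithelial and mesothelial markers were fitted too but are not described. For each member with a mean of at least 1 CPM the 3 most alike genes are named, except 1 gene that is not reported here.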

Additional observations from a re-analysis of the deposited data

Results flagged for a closer look

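*Cx3cl1* in late WT MEFs of the *S6K1/S6K2* set had 15.4 CPM in replicate 1, against 2.698 to 4.35 CPM in the other 3 libraries. The gap to the nearest library was 0.870 of the group's range, above the 95% limit of Dixon's test for 4 libraries. It was the only such value among 40 groups of member levels looked at, and chance gives about 1 in 20.

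*Cxcl2* differed between the sets in the effect of passage, by 7.56 on the log2 scale (SE 0.70, edgeR, adjusted *P* = 1.25e-06). It was lower in 4 of 4 late than in all early WT libraries of the *S6K1* set and higher in 4 of 4 in the *S6K1/S6K2* set.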

How the results depend on the processing

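No paired analysis was possible because the library codes of the labels are not shared between groups. With 3 or 4 libraries a group, the calls of *Cxcl2*, *Cxcl16* and *Pf4* in DKO MEFs rested on few libraries, and *Cxcl9*, *Cxcl2* and *Pf4* on few counts where low. *Cxcl2* and *Cxcl16* with passage in both sets, *Cxcl10* with passage in the *S6K1* set and *Cxcl14* with passage in the *S6K1/S6K2* set passed in all 11 fits that left out 1 library and in all 7 other fits. The cause of the changes below was not tested.

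The number of members passing moved from 5 to 3 with passage in the *S6K1* set when only these 2 groups were fitted. In DKO MEFs it moved from 4 to 1 with a Y-linked covariate and to 1 with only 2 groups, where *Cxcl2* (adjusted *P* = 0.111 and 0.104), *Cxcl16* (0.0596 and 0.0534) and *Pf4* (0.0555 and 0.0761) no longer passed in edgeR. The passage difference between sets went from 1 to 2 by DESeq2 and to 2 with the covariate, by gaining *Cxcl14* (adjusted *P* = 0.00592 in DESeq2 and 0.00999 in edgeR), and the genotype difference went from 0 to 1 by DESeq2. *Cxcl5* with passage in the *S6K1* set passed by DESeq2 (adjusted *P* = 0.0411) and with the covariate in edgeR (0.0212). *Cxcl14* in late WT between sets (-1.08, SE 0.29, edgeR, adjusted *P* = 0.0715) passed by DESeq2 (adjusted *P* = 0.0142) and with the covariate in edgeR (0.0219). Without each library in turn the numbers were 3 to 5 and 3 to 4 with passage in the *S6K1* and *S6K1/S6K2* sets, 0 to 0 for KO, 0 to 4 for DKO (0 without DKO replicate 2), 1 to 2 and 0 to 0 for the passage and genotype differences, and 1 to 1 and 2 to 3 for early and late WT between sets.

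Estimates near 0 that did not pass changed sign. With the covariate *Cxcl12* was at -0.22 with passage in the *S6K1* set and at 0.29 for the passage difference, and with total counts at -0.022 with passage in the *S6K1/S6K2* set. In KO MEFs *Cxcl10* was at -0.00308, -0.00347, -0.00406, -0.023 and -0.00371 and *Cxcl14* at -0.00216, -0.00224, -0.019, -0.35 and -0.00575 by DESeq2, RLE scaling, total counts, the covariate and 2 groups only. Leaving out 1 library gave, with passage in the *S6K1* set, *Cxcl12* -0.19 to 0.30. For KO it gave *Cxcl1* -1.33 to 0.42, *Cxcl5* -1.26 to 0.75, *Cxcl9* -0.17 to 1.57, *Cxcl10* -0.19 to 0.28, *Cxcl14* -0.21 to 0.21 and *Cx3cl1* -1.20 to 0.14. For passage in the *S6K1/S6K2* set it gave *Cxcl1* -0.36 to 1.07, *Cxcl12* -0.098 to 0.16 and *Cx3cl1* -1.03 to 0.12. Differences between sets ranged for passage over -1.27 to 0.67 (*Cxcl5*) and -0.24 to 0.22 (*Cxcl12*), and for genotype over -0.029 to 2.24 (*Cxcl5*). For early WT they were -0.18 to 0.32 (*Cx3cl1*), -0.72 to 0.00083 (*Cxcl5*) and -0.025 to 0.44 (*Cxcl16*), and for late WT -1.60 to 0.34 (*Cxcl5*), -0.36 to 0.071 (*Cxcl16*), -0.46 to 0.071 (*Cxcl10*) and -0.080 to 0.38 (*Cxcl12*).

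Over all genes, DESeq2 called 266 in KO (edgeR 6), 2845 with passage in the *S6K1/S6K2* set (1892), 1206 in DKO (686), 222 and 65 for the passage and genotype differences (106 and 1) and 840 and 556 for early and late WT between sets (125 and 177). In edgeR the covariate gave 3288 with passage in the *S6K1* set (1827), 37 in KO and 100 for late WT between sets, no filter gave 43 in KO, 3 for the genotype difference and 117 for late WT, and all 6 groups gave 16 in KO. Total-count scaling moved the median of all genes to 0.11 for early WT between sets.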

Other observations

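*Cxcl15*, a CXC ligand outside the 10 members, had the widest spread among the other ligands tested. DKO libraries had 221 to 1033 counts and late WT libraries of that set 14 to 1260 counts, and the difference of 1.27 did not pass (edgeR, adjusted *P* = 0.635).

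*Ackr4*, a scavenging chemokine receptor, had 19 to 36 counts in late KO libraries and 1 to 12 counts in late WT libraries of the *S6K1* set, and 15 to 42 against 4 to 17 counts in DKO and late WT libraries. The differences were 2.01 (edgeR, adjusted *P* = 0.314) and 1.88 (edgeR, adjusted *P* = 0.0819). Neither passed in edgeR, and DESeq2 called the DKO difference.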
